A study of Homo sapiens with 12 samples.

Results

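Cholesterol and long-chain fatty acids are built from acetyl-CoA by separate enzyme chains. RNA of 31 genes of these chains was followed in 624Mel, a human melanoma cell line. The genes were taken by name and cover the enzymes from HMGCS1 to DHCR7, the sterol-sensing machinery, the fatty acid enzymes and CH25H, and all 31 were found among the 40173 gene IDs measured. Cells received a control siRNA (siCTRL) or an siRNA against MITF (siMITF) by reverse transfection. At 24 h each was left untreated or given interferon gamma (IFNγ) at 5 ng/mL for another 24 h. This gave 4 conditions of 3 libraries each, named siCTRL, siCTRL + IFNγ, siMITF and siMITF + IFNγ. All libraries came from the one line, the knockdown was transient, and the untreated arms received no IFNγ. The design asks how loss of MITF, the transcription factor that maintains the pigmented melanocytic state, alters the response to IFNγ.

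The sterol chain runs from acetyl-CoA through mevalonate, isoprenoids, squalene and lanosterol to cholesterol. Its genes are classically switched on together by SREBP-2, the product of SREBF2, while SREBP-1, the product of SREBF1, acts more on fatty acid genes. Both are membrane-bound precursors that SCAP escorts out of the endoplasmic reticulum when sterols are low, and INSIG1 holds SCAP back when sterols are high. In melanocytic cells lipid synthesis supplies membranes and the desaturated fatty acids made by SCD.

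Promoter sequences are shown for 4 genes on which the results below turn, or which control the rest. They are the 250 bases before the transcription start in RefSeq on GRCh38.p14, written 5′ to 3′ on the gene's strand. TM7SF2 (chr11:65111622-65111871, plus strand) and SCD (chr10:100346983-100347232, plus strand) were the genes that passed with IFNγ in siCTRL cells. INSIG1 (chr7:155297628-155297877, plus strand) holds an E-box of the kind MITF binds. SREBF2 (chr22:41832855-41833104, plus strand) encodes the sterol regulator itself. Capitals mark the CCAAT box or its reverse complement ATTGG in TM7SF2 and SCD, both strands of TCACGTG in INSIG1, and the sterol regulatory element TCACNCCAC in SREBF2.
TM7SF2: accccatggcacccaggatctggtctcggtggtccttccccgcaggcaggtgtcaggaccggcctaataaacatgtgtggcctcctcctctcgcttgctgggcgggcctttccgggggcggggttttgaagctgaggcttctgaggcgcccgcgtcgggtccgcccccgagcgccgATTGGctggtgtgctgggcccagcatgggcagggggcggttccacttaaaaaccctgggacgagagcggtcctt
SCD: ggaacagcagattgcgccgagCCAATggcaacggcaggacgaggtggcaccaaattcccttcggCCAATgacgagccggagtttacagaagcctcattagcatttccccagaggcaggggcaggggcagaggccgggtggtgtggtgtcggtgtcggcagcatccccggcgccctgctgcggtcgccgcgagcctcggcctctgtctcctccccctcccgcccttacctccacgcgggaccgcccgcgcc
INSIG1: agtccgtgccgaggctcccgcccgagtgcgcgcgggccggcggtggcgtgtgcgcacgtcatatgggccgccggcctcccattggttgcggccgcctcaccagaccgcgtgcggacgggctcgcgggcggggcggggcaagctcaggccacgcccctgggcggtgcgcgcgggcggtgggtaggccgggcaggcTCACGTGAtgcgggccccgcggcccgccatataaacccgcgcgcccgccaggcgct
SREBF2: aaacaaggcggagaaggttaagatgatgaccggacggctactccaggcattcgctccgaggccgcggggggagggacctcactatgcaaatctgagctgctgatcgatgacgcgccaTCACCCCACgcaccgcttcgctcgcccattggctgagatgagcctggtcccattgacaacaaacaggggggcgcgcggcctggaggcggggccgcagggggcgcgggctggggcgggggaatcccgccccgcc
The marked letters begin 74 bases before the start in TM7SF2, 229 and 186 bases before it in SCD, 56 bases before it in INSIG1 and 133 bases before it in SREBF2. These starts are those of RefSeq. GENCODE begins INSIG1 at 155297776 and TM7SF2 at 65111845, within the printed stretches, so the marked INSIG1 letters lie inside the gene in GENCODE.

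RefSeq promoters, from 250 bases before to 50 bases after the start, were found for 28 of the 31 genes, in 37 entries. FASN, FDFT1 and SQLE had none. Each motif was searched on both strands in these and in all 35116 promoters. CCAAT occurred in promoters of 21 genes, or 67.6% of their entries, against 34.6% of all promoters. TCACNCCAC occurred in SREBF2 alone, against 1.13% of all promoters. Only exact letters were matched, with N as any base, so variant forms of the sterol element were not counted. TCACGTG occurred in INSIG1, LSS and SC5D, against 3.71% of all promoters, and the other MITF form TCATGTG in ACACA, against 2.92%. GAAANNGAA, the letters of an interferon-response element, occurred in EBP alone, against 8.11% of all promoters. No motif of this set contains another, though TCACGTG and its reverse complement overlap where TCACGTGA occurs.

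The labels were checked against marker genes. MITF levels were 187, 229 and 217 TPM for siCTRL against 36.0, 49.7 and 41.7 TPM for siMITF, a log2 change of -2.29 (limma adjusted p = 1.2e-06). The melanocytic genes PMEL, MLANA, DCT, TRPM1 and SOX10 were all expressed in siCTRL. GBP1, an IFNγ-induced gene, lay between 0.746 and 0.980 TPM in siCTRL, between 424 and 532 TPM in siCTRL + IFNγ and between 828 and 890 TPM in siMITF + IFNγ. Of other cell types, the T cell gene CD3E was listed at 0 in all 12 libraries, PTPRC did not exceed 0.732 TPM, and the keratinocyte genes KRT5 and KRT14 did not exceed 0.0721 TPM. LYZ, listed as a leukocyte marker, moved with the conditions. It lay between 2.31 and 2.62 TPM in siCTRL, 1.31 and 1.60 TPM in siCTRL + IFNγ, 4.37 and 5.22 TPM in siMITF, and 2.93 and 3.12 TPM in siMITF + IFNγ. Its log2 change was 0.74 with siMITF without IFNγ (limma adjusted p = 7.8e-05) and 0.71 with IFNγ (1.1e-04), and IFNγ lowered it by 0.49 in siCTRL cells and 0.51 in siMITF cells (0.00526 and 0.00269).

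Mitochondrial genes took 7.42% to 16.9% of the TPM of a library. The first replicates of siCTRL + IFNγ and of siMITF + IFNγ stood apart. Both had 16.9% mitochondrial TPM, close to the 15.7% and 16.1% of the third siCTRL + IFNγ and siMITF + IFNγ libraries. On average over the lipid genes, the first replicates lay 0.22 and 0.15 log2 units below the siCTRL mean, while the other 10 libraries lay between -0.07 and 0.09. LSS, CYP51A1, SREBF2, SCAP, ACACA and DHCR7 were lowest there, for example SCAP at 15.5 TPM against 25.8 and 22.9 TPM in the other siCTRL + IFNγ libraries. Counts of lipid genes without both libraries are given with those of each comparison, and the part of RNA composition in these differences was not tested.

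The lipid genes were abundant in untreated siCTRL cells on the TPM scale, which corrects for transcript length. ACSL3, which activates fatty acids with coenzyme A, was highest with a mean of 232 ± 10.0 TPM (SD, n = 3). FDPS at 181 TPM and SCD at 180 TPM came next and overlapped, followed by FASN at 159 TPM and ACLY at 120 TPM. The lowest of those expressed were HSD17B7 at 10.7 TPM, FADS2 at 5.04 TPM and TM7SF2 at 4.89 TPM, and the libraries of the last pair overlapped. CH25H, the enzyme that makes 25-hydroxycholesterol and an interferon-stimulated gene in other cell types, was listed at 0 in every library, with and without IFNγ. The remaining 30 genes reached the limit for testing, a condition mean of 2 TPM or more.

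Knockdown of MITF without IFNγ moved the lipid genes in both directions. On the log2(TPM + 1) scale 13 of the 30 passed the test, 6 higher and 7 lower, or 43.3%. Of all 12773 gene IDs tested, 34.8% passed, 21.0% higher and 13.8% lower. Passing means a limma adjusted p under 0.05, over all gene IDs tested. The median change was -0.05 for the lipid genes and 0.06 over all gene IDs tested. TPM is a share of the RNA of a library, so fewer cells of a kind and less RNA per cell cannot be told apart. Without both libraries that stood apart, 8 rose and 8 fell, against 46.7% of all gene IDs tested (28.5% higher and 18.3% lower). The 3 siMITF libraries lay wholly above siCTRL for 8 genes and wholly below for 8, while 55.0% of all gene IDs tested did not overlap between these conditions. With the replicate block described below, 16 lipid genes passed, against 47.7% of all gene IDs tested.

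With IFNγ in both arms, siMITF gave a similar picture. There 12 lipid genes passed, 6 higher and 6 lower, or 40.0%, against 33.1% of all gene IDs tested (18.4% higher and 14.7% lower). The libraries lay wholly apart for 13 genes, 6 above and 7 below, against 38.3% of all gene IDs tested. Without both libraries that stood apart, 6 rose and 7 fell, against 36.0%, and with the block 17 passed, against 46.3%.

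IFNγ raised TM7SF2 and SCD in siCTRL cells and TM7SF2, HSD17B7 and MSMO1 in siMITF cells, where MVD and EBP fell. In siCTRL cells 2 lipid genes thus passed, or 6.67% against 12.9% of all gene IDs tested. Those 12.9% were 6.80% higher and 6.14% lower, so that 52.5% of the calls were higher, and 41.7% were higher after quantile normalization. In siMITF cells 5 passed, 3 higher and 2 lower, or 16.7% against 20.2% of all gene IDs tested (7.99% higher and 12.2% lower). The IFNγ libraries lay wholly above the untreated ones for 3 genes and wholly below for 8 in siCTRL cells, where 29.7% of all gene IDs tested did not overlap. In siMITF cells they lay above for 4 and below for 4, against 40.5%. Without both libraries, 3 rose and none fell in siCTRL cells, against 15.8% of all gene IDs tested (10.2% higher and 5.66% lower). In siMITF cells 5 rose and 3 fell, against 23.9% (10.7% higher and 13.2% lower).

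Libraries with the same replicate number deviated together, and a fit with that number as a block passed more genes. The block gave 8 lipid genes for IFNγ in siCTRL cells, 3 higher and 5 lower, against 25.7% of all gene IDs tested (9.67% higher and 16.0% lower). In siMITF cells it gave 9, 4 higher and 5 lower, against 35.7% (11.2% higher and 24.5% lower). For the combination of siMITF and IFNγ against untreated siCTRL, 17 lipid genes passed without the block, 7 higher and 10 lower, or 56.7% against 44.5% of all gene IDs tested (21.1% higher and 23.4% lower). With the block 21 passed, against 56.9%, and without both libraries that stood apart 16, 6 higher and 10 lower, against 50.9%. The libraries lay wholly above siCTRL for 6 genes and wholly below for 12, against 53.1% of all gene IDs tested. The comparisons share libraries, so their counts are not independent of each other.

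**Figure D1:**
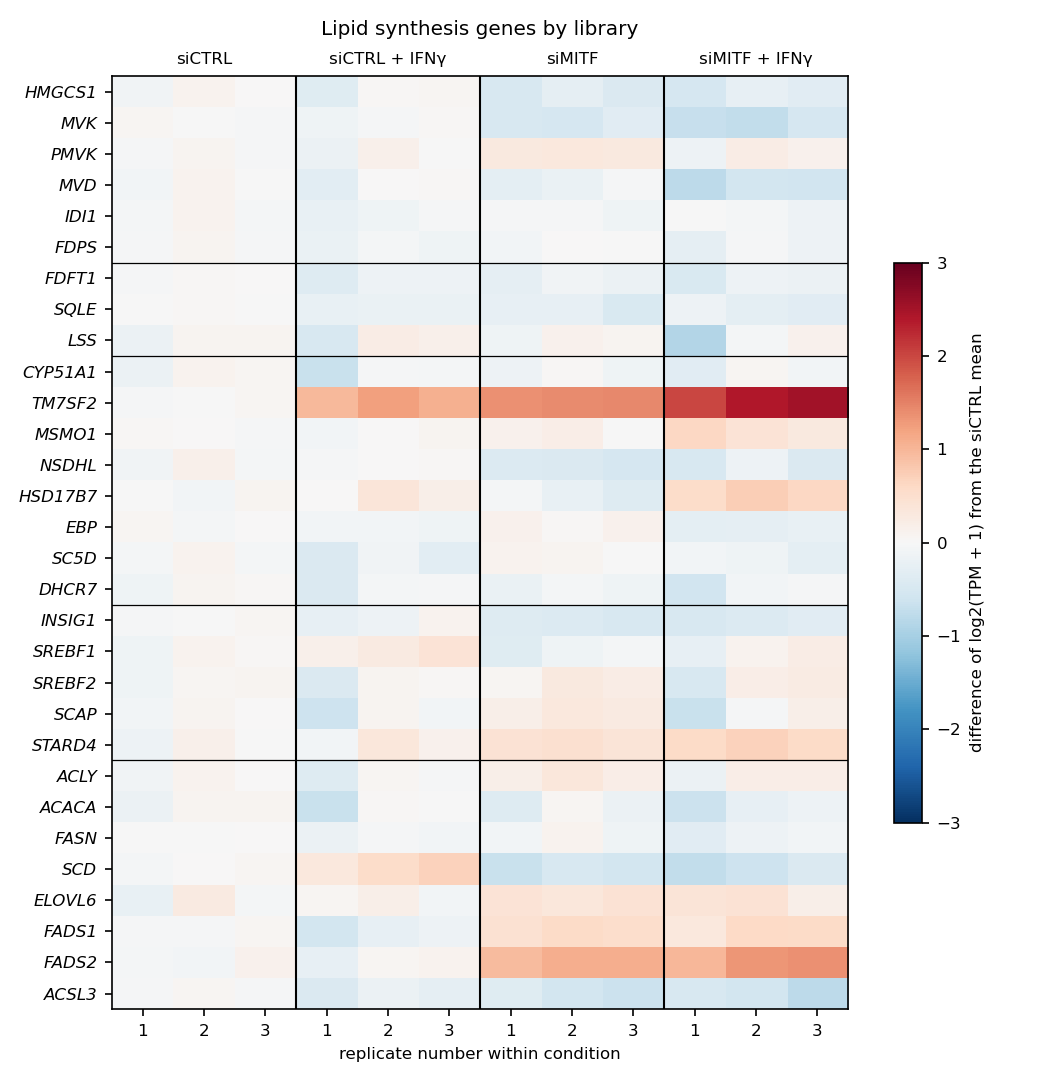
Each cell is the difference of log2(TPM + 1) of 1 library (columns, 3 replicates in each of 4 conditions) from the mean of the siCTRL libraries, for the 30 expressed lipid genes (rows, with lines between roles), on a color scale from -3 to 3. TM7SF2 is higher in all 9 libraries other than siCTRL, SCD is higher in siCTRL + IFNγ and lower in both siMITF conditions, and the first replicate of each IFNγ condition is lower than the other replicates for many genes.

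TM7SF2, a sterol C14 reductase that acts on the product of CYP51A1, had the largest change of the 30 genes in 4 of the 5 pairwise comparisons and was the one gene that passed in all 5. It lies at chr11:65111845-65116384 on the plus strand in GENCODE. Its level was 4.73, 4.82 and 5.11 TPM in siCTRL, 10.5, 12.8 and 11.4 TPM in siCTRL + IFNγ, 14.3, 14.6 and 15.0 TPM in siMITF, and 22.6, 30.2 and 33.0 TPM in siMITF + IFNγ. No library of one condition overlapped with another condition. The gene rose by 1.41 ± 0.12 log2 units (SE) with siMITF, a 2.66-fold change on the log2(TPM + 1) scale (limma adjusted p = 2.3e-06). IFNγ raised it by 1.09 ± 0.12 in siCTRL cells (limma adjusted p = 5.1e-05) and by 0.90 ± 0.12 in siMITF cells (limma adjusted p = 2.2e-04). The combination stood 2.31 ± 0.12 above untreated siCTRL, or 4.97-fold. The interaction, the difference of the IFNγ effect in siMITF and siCTRL cells, was -0.19 and did not pass.

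LBR, the lamin B receptor, catalyzes the same C14 reduction. It was at 61.5, 70.7 and 66.6 TPM in siCTRL, and at 42.0, 56.4 and 49.6 TPM in siCTRL + IFNγ, a log2 change of -0.43 (limma adjusted p = 0.0114). In siMITF cells IFNγ lowered LBR by 0.38 log2 units (limma adjusted p = 0.0160). TM7SF2 therefore made up 6.39% to 7.15% of the summed TPM of the pair in siCTRL and 18.5% to 20.0% in siCTRL + IFNγ. It made up 17.2% to 18.4% in siMITF and 30.0% to 39.3% in siMITF + IFNγ. The sum itself was 66.2 to 75.5 TPM in siCTRL, 52.6 to 69.2 TPM in siCTRL + IFNγ, 81.7 to 85.1 TPM in siMITF and 75.6 to 84.1 TPM in siMITF + IFNγ, so that it was not higher in the combination than with siMITF alone.

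Other enzymes between lanosterol and cholesterol differed from TM7SF2 and from each other. HSD17B7, the 3-ketosteroid reductase of the C4 demethylation complex, was at 10.6, 10.1 and 11.4 TPM in siCTRL and at 10.7, 14.1 and 12.3 TPM in siCTRL + IFNγ. In siMITF it was at 10.3, 8.96 and 7.87 TPM, and in siMITF + IFNγ at 16.1, 18.5 and 17.1 TPM. The combination lay above every other library. IFNγ raised HSD17B7 in siMITF cells by 0.87 ± 0.12 log2 units, or 1.82-fold (limma adjusted p = 2.0e-04), while the change in siCTRL cells was 0.18 and did not pass. The interaction was 0.68 (interval of 95%, 0.32 to 1.04). Its limma adjusted p was 0.10 without the replicate block and 0.0475 with it. HSD17B7 has 2 annotated pseudogene copies, whose reads the quantification could have split. The same limit holds for FDPS with 8 copies, IDI1 and CYP51A1 with 3 each, and SCD and ACSL3 with 1 each.

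MSMO1, the C4 methyl oxidase of that complex, was at 26.3, 25.9 and 25.2 TPM in siCTRL, 24.4, 25.8 and 27.2 TPM in siCTRL + IFNγ, 28.4, 29.6 and 25.5 TPM in siMITF, and 39.9, 34.5 and 31.8 TPM in siMITF + IFNγ. It rose with IFNγ in siMITF cells by 0.33 ± 0.09 (limma adjusted p = 0.0239), a call lost without the first or the third siMITF library or the first siMITF + IFNγ library (the highest adjusted p over all alternatives was 0.104). NSDHL, the C4 decarboxylase, was at 25.4, 30.7 and 26.3 TPM in siCTRL, 26.9, 27.5 and 28.2 TPM in siCTRL + IFNγ, 20.5, 20.1 and 18.9 TPM in siMITF, and 19.4, 24.7 and 19.9 TPM in siMITF + IFNγ. Both siMITF conditions lay below both siCTRL conditions, with log2 changes of -0.44 without IFNγ and -0.36 with it (limma adjusted p = 0.00468 and 0.0167). The second call was lost without the third siCTRL + IFNγ library or without the first or the third siMITF + IFNγ library (highest adjusted p 0.0730). The enzymes of one complex thus had changes of opposite sign in siMITF + IFNγ against siCTRL + IFNγ, with MSMO1 and HSD17B7 higher by 0.44 and 0.45 and NSDHL lower.

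EBP, the sterol isomerase, was at 59.4, 55.2 and 57.3 TPM in siCTRL, 54.0, 54.1 and 52.1 TPM in siCTRL + IFNγ, 62.7, 59.0 and 62.5 TPM in siMITF, and 46.9, 47.2 and 49.2 TPM in siMITF + IFNγ. It fell with IFNγ in siMITF cells by 0.36 log2 units (limma adjusted p = 0.00167), where the libraries did not overlap. With siMITF in IFNγ-treated cells its change was -0.16, with a limma adjusted p of 0.0735 without the block and 0.0358 with it. CYP51A1, SC5D and DHCR7 did not pass in any comparison. Their changes ranged from -0.29, for SC5D with IFNγ in siCTRL cells, to 0.12. SC5D, the sterol desaturase, passed with the block for IFNγ in siCTRL cells (limma adjusted p = 0.0149) and in siMITF cells (limma adjusted p = 0.0356). DHCR7 passed with the block in the combination (limma adjusted p = 0.0288), and with length and GC trends removed it also passed with siMITF without IFNγ at -0.24 (adjusted p = 0.0155) and with IFNγ in siCTRL cells at -0.24 (adjusted p = 0.0263).

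**Figure D2:**
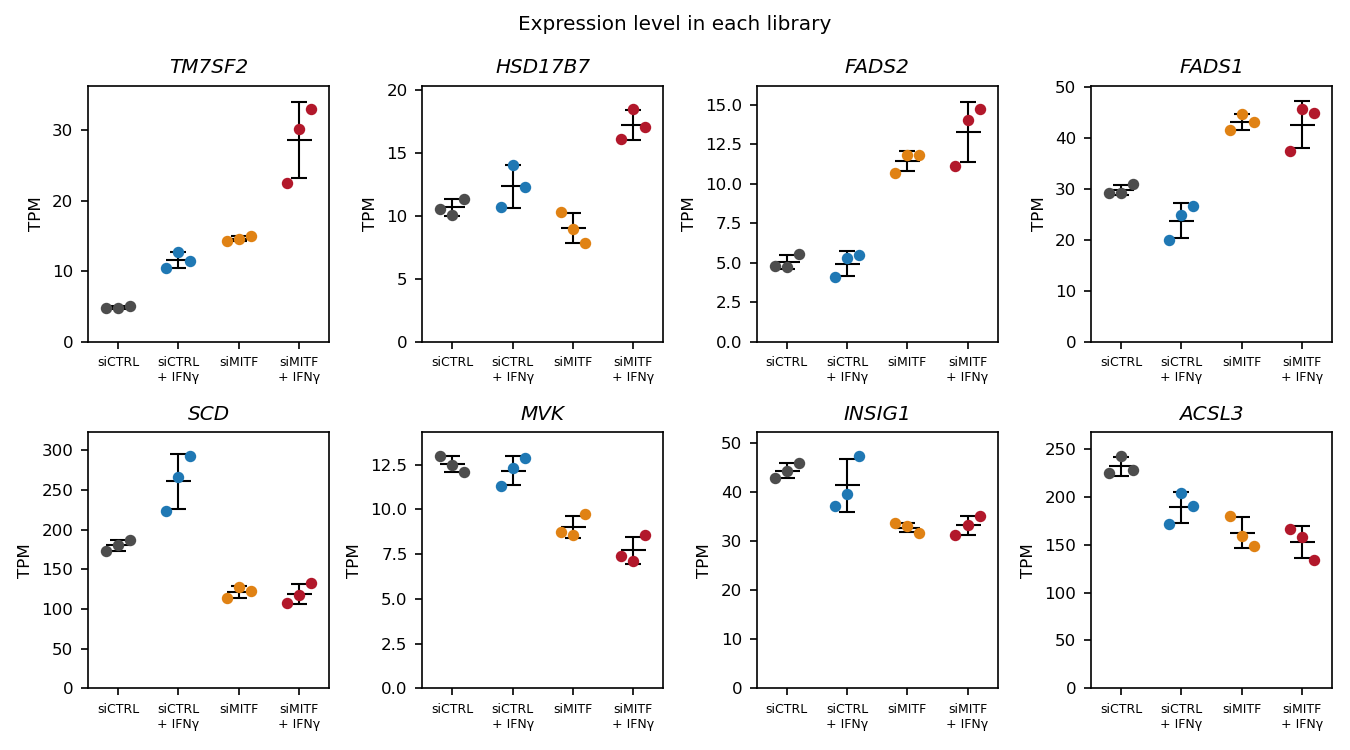
TPM of 8 lipid genes in each library (points), with the mean and SD of the 3 libraries of each condition (black bars), each panel on its own axis from 0. TM7SF2 means lie at 4.89 TPM for siCTRL and at 28.6 TPM for siMITF + IFNγ, while the siCTRL + IFNγ libraries of SCD, between 224 and 293 TPM, are its highest.

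Of the 6 mevalonate and isoprenoid enzymes, HMGCS1 and MVK fell and PMVK rose with siMITF without IFNγ, and MVK and MVD fell with siMITF in IFNγ-treated cells. The other members did not pass in those comparisons. HMGCS1, the enzyme that condenses acetyl-CoA units into HMG-CoA, was at 98.7, 114 and 108 TPM in siCTRL, 82.4, 110 and 111 TPM in siCTRL + IFNγ, 76.7, 87.7 and 78.2 TPM in siMITF, and 75.5, 90.3 and 83.9 TPM in siMITF + IFNγ. It fell by 0.40 log2 units with siMITF without IFNγ (limma adjusted p = 0.0179), a call lost without the second or the third siCTRL library or without the first or the third siMITF library (highest adjusted p 0.0676). With IFNγ the change was -0.27, with a limma adjusted p of 0.0955 without the block and 0.00674 with it. MVK, mevalonate kinase, had the clearest separation of this group. It was at 13.0, 12.5 and 12.1 TPM in siCTRL, 11.3, 12.3 and 12.9 TPM in siCTRL + IFNγ, 8.72, 8.57 and 9.73 TPM in siMITF, and 7.42, 7.13 and 8.58 TPM in siMITF + IFNγ. Its log2 changes with siMITF were -0.44 ± 0.09 without IFNγ and -0.60 ± 0.09 with it (limma adjusted p = 0.00310 and 3.5e-04).

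MVD, the mevalonate diphosphate decarboxylase, was at 24.4, 28.0 and 25.6 TPM in siCTRL, 20.7, 26.3 and 26.8 TPM in siCTRL + IFNγ, 21.0, 22.4 and 25.1 TPM in siMITF, and 14.7, 17.3 and 17.0 TPM in siMITF + IFNγ. The combination lay below every other library. The fall with IFNγ in siMITF cells was 0.46 log2 units (limma adjusted p = 0.0133), and without the third siMITF library it did not pass (adjusted p = 0.0625). PMVK, the kinase between MVK and MVD, was at 42.0, 45.7 and 42.3 TPM in siCTRL, 38.4, 48.1 and 43.3 TPM in siCTRL + IFNγ, 53.3, 53.8 and 53.0 TPM in siMITF, and 38.8, 50.8 and 47.5 TPM in siMITF + IFNγ. It rose by 0.30 with siMITF without IFNγ (limma adjusted p = 0.0443). That call was lost in 10 alternatives, among them the omission of any siCTRL or siMITF library or of the third library of either IFNγ condition (highest adjusted p 0.124), and the change was 0.19 with length and GC trends removed. With IFNγ in siMITF cells PMVK was at -0.23, with a limma adjusted p of 0.147 without the block and 0.0331 with it. IDI1 and FDPS, which make the isoprenoid building blocks, did not pass in any comparison, with changes between -0.15 and 0.06.

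At the entry into sterols proper, FDFT1, squalene synthase, was at 85.2, 88.7 and 87.5 TPM in siCTRL, 66.2, 78.9 and 77.9 TPM in siCTRL + IFNγ, 72.1, 80.3 and 76.6 TPM in siMITF, and 63.3, 78.8 and 76.9 TPM in siMITF + IFNγ. Every library of the other 3 conditions lay below siCTRL. The combination passed at -0.26 (limma adjusted p = 0.0428), and the call was lost in 11 alternatives, among them the omission of any siCTRL or siMITF library, of the third siCTRL + IFNγ library or of the first siMITF + IFNγ library, where it was -0.16 (highest adjusted p 0.152). With the block FDFT1 also passed with siMITF without IFNγ at -0.19 (limma adjusted p = 0.0241, and 0.148 without the block) and with IFNγ in siCTRL cells at -0.23 (0.0168, and 0.144 without). SQLE, squalene epoxidase, was at 30.7, 31.7 and 30.5 TPM in siCTRL, 26.6, 26.8 and 26.8 TPM in siCTRL + IFNγ, 26.0, 25.9 and 22.4 TPM in siMITF, and 27.8, 25.0 and 24.2 TPM in siMITF + IFNγ. It fell by 0.31 with siMITF without IFNγ (limma adjusted p = 0.00957), and the third siMITF library decided the call (adjusted p = 0.05 without it). The change with IFNγ in siCTRL cells was -0.20, with a limma adjusted p of 0.132 without the block and 0.0494 with it. LSS, lanosterol synthase, ranged from 10.5 to 24.0 TPM and did not pass, and 10.5 TPM was in the first siMITF + IFNγ library.

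**Figure D3:**
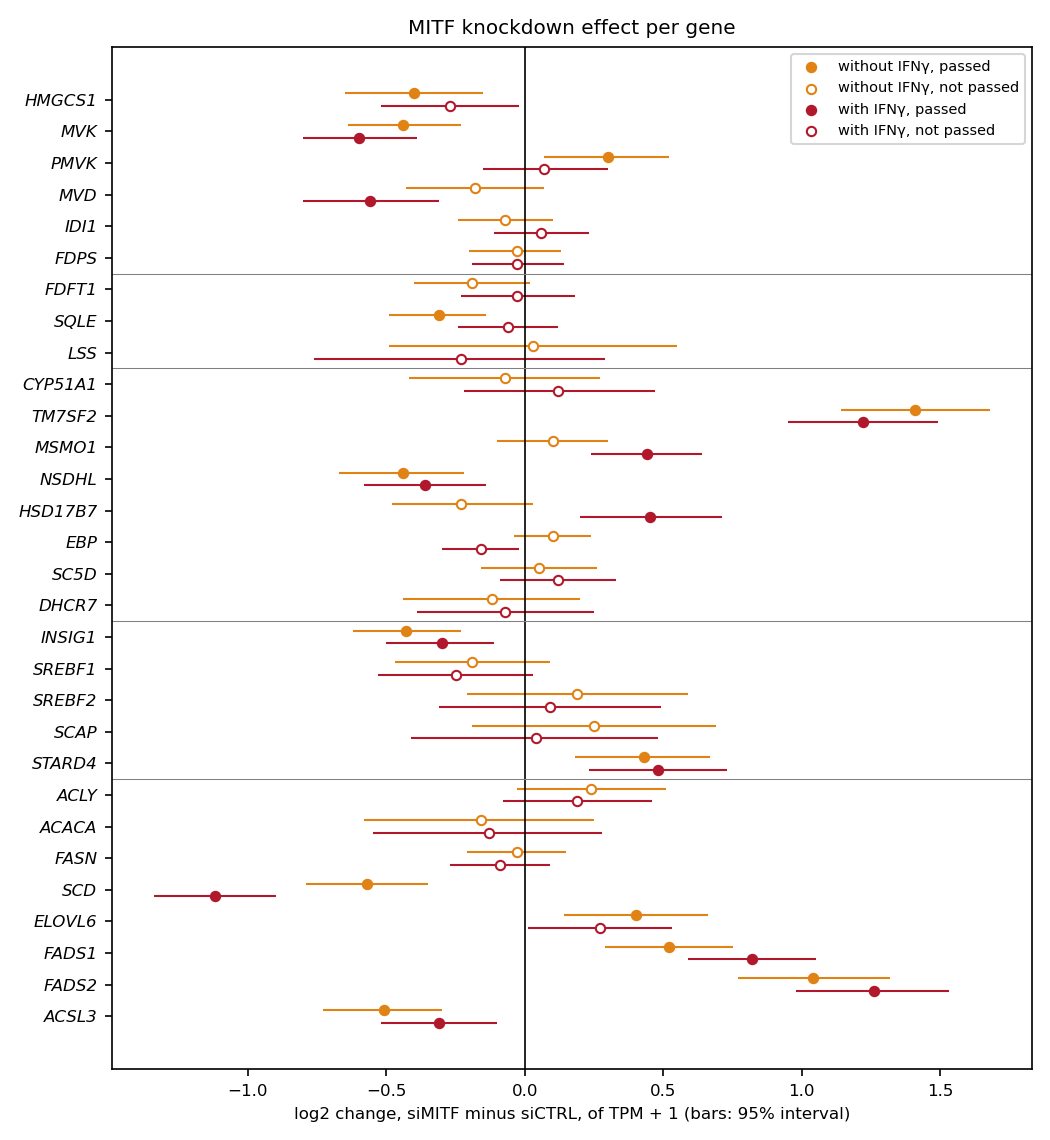
Change of each lipid gene with siMITF (points, log2 of TPM + 1) without IFNγ and with IFNγ, with intervals of 95% (bars), where filled points passed the test. TM7SF2 and FADS2 lie farthest to the right and SCD with IFNγ, at -1.12, farthest to the left.

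INSIG1, which retains SCAP, fell with siMITF in both arms. It was at 42.9, 44.2 and 46.0 TPM in siCTRL, 37.1, 39.6 and 47.4 TPM in siCTRL + IFNγ, 33.6, 33.0 and 31.7 TPM in siMITF, and 31.3, 33.3 and 35.1 TPM in siMITF + IFNγ. All 6 siMITF libraries lay below all 6 siCTRL libraries. The log2 change was -0.43 ± 0.09 without IFNγ (limma adjusted p = 0.00282) and -0.30 ± 0.09 with it (limma adjusted p = 0.0219). The latter was lost without the third siCTRL + IFNγ library or without the first or the second siMITF + IFNγ library (highest adjusted p 0.119). INSIG1 carries the TCACGTG printed above. LSS and SC5D, which carry the same letters, did not pass, and neither did ACACA with TCATGTG. In LSS the letters lie after the start. The part of these letters in the changes was not tested.

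STARD4, which carries cholesterol between membranes, rose with siMITF. It was at 12.2, 15.3 and 13.5 TPM in siCTRL, 12.8, 17.6 and 15.1 TPM in siCTRL + IFNγ, 18.6, 19.3 and 18.0 TPM in siMITF, and 20.9, 22.5 and 20.7 TPM in siMITF + IFNγ. Its changes were 0.43 without IFNγ and 0.48 with it (limma adjusted p = 0.0112 and 0.00581), and the former did not pass without the first siCTRL library (adjusted p = 0.0553). SREBF2 was between 57.7 and 99.4 TPM over the 12 libraries and SCAP between 14.9 and 30.5 TPM, and both lowest values were in the first siMITF + IFNγ library. Neither passed in any comparison without the block in the fit of all 12 libraries on the deposited scale. SCAP with siMITF without IFNγ, at 0.25, passed without both libraries that stood apart (adjusted p = 0.0251) and with the 2 conditions compared alone. SREBF1 was between 25.4 and 44.5 TPM. Its change was 0.28 with IFNγ in siCTRL cells and -0.25 with siMITF in IFNγ-treated cells, where the limma adjusted p was 0.188 and 0.167 without the block and 0.0113 and 0.0122 with it. With the block SREBF1 also passed with siMITF without IFNγ at -0.19 (adjusted p = 0.0453) and with IFNγ in siMITF cells at 0.22 (adjusted p = 0.0278). With length and GC trends removed from each library, SREBF1 with siMITF without IFNγ was at -0.38 (adjusted p = 0.00300). SCAP with IFNγ in siMITF cells was at -0.42, with an adjusted p of 0.169 without and 0.0268 with the block, and it also passed with those trends removed.

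SCD, the delta-9 desaturase that makes oleate, rose with IFNγ in siCTRL cells and fell with siMITF. It was at 173, 181 and 187 TPM in siCTRL, 224, 266 and 293 TPM in siCTRL + IFNγ, 114, 128 and 122 TPM in siMITF, and 108, 117 and 133 TPM in siMITF + IFNγ. IFNγ raised SCD in siCTRL cells by 0.52 ± 0.10 log2 units, or 1.43-fold (limma adjusted p = 0.00446). In siMITF cells the change was -0.03 with an interval of 95% from -0.25 to 0.19. The fall with siMITF was 0.57 ± 0.10 without IFNγ and 1.12 ± 0.10 with it, the latter a level 2.17-fold lower (limma adjusted p = 8.6e-04 and 3.5e-06). The interaction was -0.55 (interval of 95%, -0.86 to -0.24), with a limma adjusted p of 0.141 without the replicate block and 0.00865 with it. Without the first siCTRL + IFNγ library alone the interaction also passed.

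FADS1 and FADS2, the delta-5 and delta-6 desaturases of polyunsaturated fatty acids, rose with siMITF, opposite to SCD. FADS2 was at 4.82, 4.73 and 5.58 TPM in siCTRL, 4.08, 5.29 and 5.48 TPM in siCTRL + IFNγ, 10.7, 11.8 and 11.8 TPM in siMITF, and 11.1, 14 and 14.7 TPM in siMITF + IFNγ. It rose by 1.04 ± 0.13 log2 units without IFNγ and by 1.26 ± 0.13 with it (limma adjusted p = 3.8e-05 and 8.3e-06), or 2.06-fold and 2.39-fold. FADS1 was at 29.3, 29.2 and 31 TPM in siCTRL, 20.0, 24.9 and 26.6 TPM in siCTRL + IFNγ, 41.6, 44.7 and 43.2 TPM in siMITF, and 37.4, 45.7 and 45.0 TPM in siMITF + IFNγ. Its changes with siMITF were 0.52 ± 0.11 and 0.82 ± 0.11 (limma adjusted p = 0.00237 and 8.0e-05). For IFNγ in siCTRL cells FADS1 was at -0.32, with a limma adjusted p of 0.0712 without the block and 0.00973 with it. FADS1 (chr11:61799627-61829318, minus strand) and FADS2 (chr11:61792980-61867354, plus strand) overlap in GENCODE, sharing 490 exon bases (4.79% of the FADS1 exons). The library kit does not mark strand, so reads from these bases cannot be assigned by strand. The same holds for HMGCS1, FDPS and IDI1, which share 37.7%, 18.6% and 15% of their exon bases with long noncoding RNAs on the other strand that have no value in the deposited table. On the same strand, EBP shares 36.4% of its exon bases with another protein-coding gene, at a mean of 0.139 TPM. CYP51A1 shares 68.2% with such a gene at a mean of 0.0324 TPM, and 67.8% with one that has no value.

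ELOVL6, the elongase of palmitate, was at 34.1, 48.6 and 38.5 TPM in siCTRL, 41.7, 45.6 and 37.7 TPM in siCTRL + IFNγ, 53.6, 51.1 and 54.7 TPM in siMITF, and 52.2, 54.2 and 45.1 TPM in siMITF + IFNγ. It rose with siMITF without IFNγ by 0.40 (limma adjusted p = 0.0213), a call lost without the first or the third library of either arm (highest adjusted p 0.101 over the alternatives). With IFNγ its change was 0.27, with an adjusted p of 0.107 without and 0.0396 with the block. ACSL3 was at 225, 243 and 228 TPM in siCTRL, 172, 204 and 191 TPM in siCTRL + IFNγ, 180, 159 and 149 TPM in siMITF, and 166, 158 and 134 TPM in siMITF + IFNγ. All libraries of the other 3 conditions lay below siCTRL. The fall with siMITF without IFNγ was 0.51 ± 0.10 (limma adjusted p = 0.00137), and with IFNγ in both arms it was 0.31 (limma adjusted p = 0.0283), lost without the second or the third siCTRL + IFNγ library or the third siMITF + IFNγ library (highest adjusted p 0.113). The change with IFNγ in siCTRL cells was -0.30, with a limma adjusted p of 0.0697 without the block and 0.0221 with it.

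The enzymes that make palmitate itself did not pass without the block in the fit of all 12 libraries on the deposited scale. FASN, fatty acid synthase, lay between 126 and 172 TPM, ACLY, which makes cytosolic acetyl-CoA, between 91.8 and 152 TPM, and ACACA, acetyl-CoA carboxylase, between 11.6 and 20.1 TPM. The change of FASN with siMITF was -0.03 without IFNγ and -0.09 with it. With length and GC trends removed these became -0.28 and -0.16 and passed (limma adjusted p = 0.00184 and 0.0353). ACLY was at 0.24 without IFNγ and passed with the block (limma adjusted p = 0.0130), as it did at 0.19 with IFNγ (limma adjusted p = 0.0383). Without IFNγ it also passed with the 2 conditions compared alone and without both libraries that stood apart. In the combination FDPS, FASN and ACACA passed with the block at -0.15, -0.19 and -0.34 (limma adjusted p = 0.0211, 0.0307 and 0.00959). There FASN also passed without the third siMITF + IFNγ library.

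**Figure D4:**
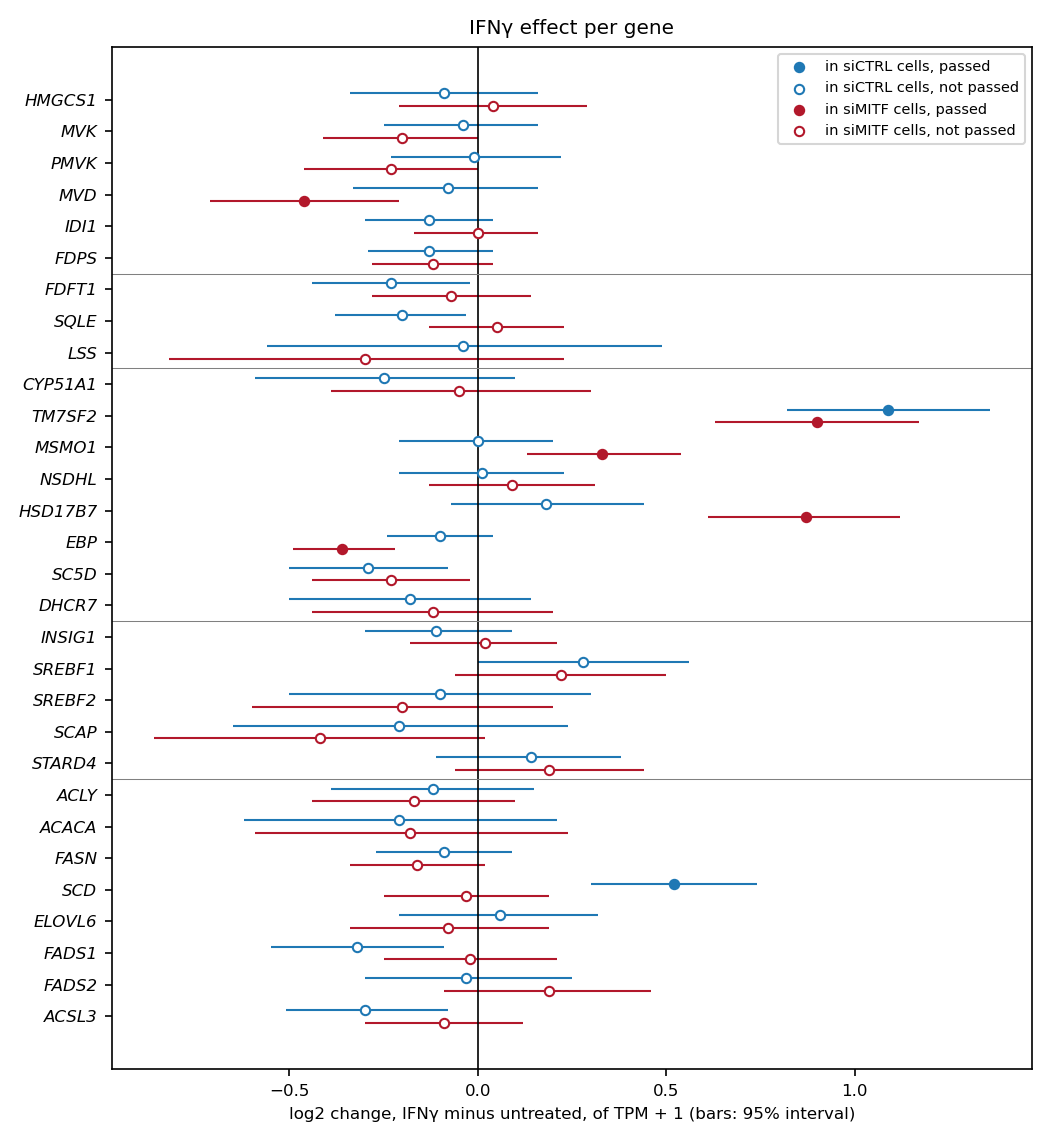
Change of each lipid gene with IFNγ (points, log2 of TPM + 1) in siCTRL cells and in siMITF cells, with intervals of 95% (bars), where filled points passed the test. TM7SF2 passed in both, SCD at 0.52 in siCTRL cells, and HSD17B7 at 0.87, MSMO1, MVD and EBP in siMITF cells.

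By role, 6 of 17 sterol enzymes passed with siMITF without IFNγ, 2 higher and 4 lower, or 35.3% against 34.8% of all gene IDs tested. With IFNγ in both arms 6 passed, 3 higher and 3 lower, or 35.3% against 33.1%. Both shares lay close to those of all gene IDs tested. Of 8 fatty acid genes, 5 passed without IFNγ, 3 higher and 2 lower, and 4 with IFNγ, 2 in each direction, or 62.5% and 50.0% against the same backgrounds. In the combination against untreated siCTRL, 10 sterol enzymes passed, 3 higher and 7 lower, or 58.8% against 44.5%. With IFNγ in siMITF cells all 5 lipid genes that passed were sterol enzymes, or 29.4% of these against 20.2%. Without both libraries that stood apart, 7 of 17 sterol enzymes passed with siMITF in each arm. Of all gene IDs tested, 46.7% passed there without IFNγ and 36.0% with it. In the combination 10 sterol enzymes passed, against 50.9%, and with IFNγ in siMITF cells 6, against 23.9%. Of the 8 fatty acid genes, 6 and 4 passed with siMITF without and with IFNγ, against the same 46.7% and 36.0%. No lipid gene passed the interaction test without the block, while 0.947% of all gene IDs tested did. An unadjusted limma p under 0.05 was found for 6 of the 30, against 7.67% of all gene IDs tested. With the block HSD17B7 and SCD passed, against 2.16% of all gene IDs tested. Without both libraries that stood apart SCD passed, against 1.08%.

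A second list of 36 genes of acetyl-CoA supply, SREBP processing, sterol transport and liver X receptor signalling was counted alongside. Of these, 31 were tested, and MLXIPL, THRSP, ABCA1, ABCG1 and CYP7B1 were below the limit. With siMITF without IFNγ 13 passed, 7 higher and 6 lower, or 41.9% against 34.8% of all gene IDs tested. With IFNγ in both arms 12 passed, 6 in each direction, or 38.7% against 33.1%. IFNγ passed 5 in siCTRL cells, 2 higher and 3 lower, or 16.1% against 12.9%. It passed 4 in siMITF cells, 1 higher and 3 lower, or 12.9% against 20.2%. In the combination 17 passed, 8 higher and 9 lower, or 54.8% against 44.5%. Without both libraries that stood apart these counts were 17, 15, 8, 6 and 19. The shares of all gene IDs tested were then 46.7%, 36.0%, 15.8%, 23.9% and 50.9%, in the same order. No gene of this list passed the interaction test in limma, with or without the block or without both libraries. An unadjusted limma p under 0.05 was found for 2 of the 31, against 7.67% of all gene IDs tested.

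ACSS2, which makes acetyl-CoA from acetate, led the genes that rose. It was at 14.9, 16.0 and 15.6 TPM in siCTRL, 22.3, 26.4 and 23.0 TPM in siCTRL + IFNγ, 32.5, 34.6 and 33.6 TPM in siMITF, and 32.9, 45.5 and 43.1 TPM in siMITF + IFNγ. It rose by 1.07 with siMITF and by 0.59 with IFNγ in siCTRL cells (limma adjusted p = 1.2e-05 and 0.00361). NR1H3, the liver X receptor alpha, rose by 0.61 with siMITF without IFNγ, and GGPS1, which makes geranylgeranyl diphosphate, by 0.54. The lysosomal cholesterol exporters NPC1 and NPC2 fell with siMITF by 0.65 and 0.82 (limma adjusted p = 2.7e-04 and 1.7e-05). NPC2 was at 113, 123 and 123 TPM in siCTRL and at 61.5, 63.4 and 78.2 TPM in siMITF. IFNγ raised NPC2, by 0.30 in siCTRL cells and by 0.44 in siMITF cells (limma adjusted p = 0.0469 and 0.00431).

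MBTPS2, the site-2 protease that releases SREBPs, fell with siMITF by 0.76 without IFNγ and by 0.55 with it (limma adjusted p = 0.00670 and 0.0376). With IFNγ in siCTRL cells MBTPS2 was at -0.31, with an adjusted p of 0.331 without the block and 0.0171 with it. Besides LBR, TMEM97 and CYP27A1 fell with IFNγ in both arms. TMEM97, a sterol-regulated membrane protein, was at 33.3, 38.7 and 31.7 TPM in siMITF and at 19.0, 20.2 and 20.6 TPM in siMITF + IFNγ. It fell by 0.76 in siMITF cells and by 0.41 in siCTRL cells (limma adjusted p = 1.8e-04 and 0.0188). CYP27A1, the sterol 27-hydroxylase, fell by 0.66 in siMITF cells and by 0.30 in siCTRL cells (limma adjusted p = 1.9e-04 and 0.0410). With siMITF in IFNγ-treated cells ACSS2, GGPS1 and ACSL4 were the highest, at 0.73, 0.69 and 0.68, and NPC2, NPC1 and MBTPS2 the lowest. ACSS2, GGPS1 and NR1H3 were the 3 highest in the combination, at 1.32, 0.68 and 0.61, and MBTPS2, TMEM97 and CYP27A1 the 3 lowest, at -0.86, -0.69 and -0.68.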

How the data were processed

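RNA of 12 libraries was prepared with a kit that does not mark strand and sequenced. The deposited values are TPM per gene, which the authors made with Trimmomatic 0.39 and kallisto on the Ensembl GRCh38 transcriptome. The authors tested differences with DESeq2 1.26.0 on counts, which are not used here. Depth cannot be read from TPM, so no counting interval is given.

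TPM were transformed as log2(TPM + 1). One limma 3.58.1 fit (R 4.3.3) with a coefficient per condition and an intensity trend covered 12773 gene IDs whose mean reached 2 TPM under any condition. P-values are two-sided and Benjamini-Hochberg adjusted over these IDs, 0.05 being the threshold. An exact permutation test of 3 against 3 libraries cannot give a p below 0.1. The study states at least 3 independent biological replicates for its experiments. No batch is labelled. The lipid genes, lists and tests were chosen with earlier results of these data known. All lipid genes are named, those that passed in a pairwise comparison with every library's value, and at most 3 genes per direction and comparison of the second list. The LBR comparison was chosen after its values were seen.

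Residuals of same-numbered libraries from different conditions correlated at 0.10 to 0.63 (18 pairs, median 0.28, all over 0.1), against a median of -0.20 for different numbers. The pairing comes from this check, not from the labels, and blocking on replicate number was an alternative. Further alternatives were pseudocounts of 0.5 and 0.1, other filters, scalings and moderation, the 2 conditions compared alone, and each library left out. Removal of length and GC trends (spline with 4 degrees of freedom, 11957 of the tested IDs with a value), alone or with the block, and leaving out both libraries that stood apart were added after seeing the data. Overlaps and positions are from GENCODE 44. The fit was tested on simulated data. Figures were made in Python 3.11.15 with matplotlib 3.10.9.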

Additional observations from a re-analysis of the deposited data

How the results depend on the processing

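Of 180 pairs of a lipid gene and a comparison, interaction included, 49 passed the test, 34 of them under every alternative and 15 not under at least 1. No pair that passed changed sign. Of the 131 that did not pass, 51 passed under at least 1 alternative. The count for siMITF without IFNγ (13) became 20 with length and GC trends removed and the replicate block, where 56.2% of all gene IDs tested passed. With a library left out it was 9 to 13 (27.2% to 38.7%), lowest without the third siMITF library (29.0%). For siMITF with IFNγ (12) the counts were 19 (56.9%) and 9 to 13 (25.7% to 33.8%), lowest without the third siCTRL + IFNγ library (25.7%). The combination (17) gave 13 to 17 (37.4% to 48.0%) with a library left out. For IFNγ in siCTRL cells (2) the count was 6 with quantile normalization, 5 with libraries centred on their median, 4 without mitochondrial genes, 10 with length and GC trends removed, 17 with these and the replicate block, and 2 to 4 with a library left out. The share of all gene IDs tested rose as well, from 12.9% to 22.1%, 22.0%, 18.1%, 28.8% and 38.8% in that order, and was 8.25% to 16.0% with a library left out. The count was 4 without the second siCTRL + IFNγ library (14.3%) or the first siMITF + IFNγ library (16.0%). For IFNγ in siMITF cells (5) it was 11 (35.9%) and 14 (46.0%) with those trends removed, without and with the block. Without both libraries that stood apart it was 8 (23.9%). With a library left out it was 3 to 5 (12.9% to 24.5%), lowest without the third siMITF library (14.1%). The interaction (0) gave 2 (2.30%) with quantile normalization, 2 (2.06%) with centring and 1 (1.69%) without mitochondrial genes. It gave 2 (2.74%) and 3 (5.61%) with trends removed without and with the block, and 1 (1.08%) without both libraries. With a library left out it gave 0 to 1 (0.546% to 0.977%), SCD passing without the first siCTRL + IFNγ library (0.782%). The causes were not tested.

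With the replicate block the counts were 16 (47.7% of all gene IDs tested) and 17 (46.3%) for siMITF without and with IFNγ. They were 8 (25.7%) and 9 (35.7%) for IFNγ in siCTRL and siMITF cells, 21 (56.9%) for the combination and 2 (2.16%) for the interaction. No call was lost with the block, 24 pairs passed with it alone, and it changed no other call. The median change with IFNγ in siCTRL cells was -0.10, and 0.01 without both libraries that stood apart. The depth of the libraries is unknown, so the limit it sets on low genes such as CH25H cannot be given.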
